A study of Mus musculus with 8 samples.

Results

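The response of long-term haematopoietic stem cells (LT-HSC) to a single total body irradiation of 2 Gy was followed at day 5 in wild-type (WT) mice, by setting the 2 arrays of irradiated WT mice against the 2 arrays of non-irradiated WT mice. These are 4 of the 8 arrays of the study, and every probe set that carries 1 gene symbol was compared. Genotype was wild-type in both groups, and both had received diphtheria toxin, which served as the control injection for the CD169-DTR mice of the study, 72 h before sham or 2 Gy irradiation. CD169-DTR mice (CD169DTR/+, heterozygous for a diphtheria toxin receptor placed under the gene of CD169, Siglec1) lose CD169+ macrophages after the toxin. Their 2 non-irradiated and 2 irradiated arrays serve below for comparison. They also share in the estimate of spread behind the p-values and intervals of the main fit, so that the WT calls depend on them. The cells were sorted from bone marrow by the surface phenotype Lin-, cKit+, Sca+, Flk2-, CD48- and CD150+. The replicates of a group come from separate experiments per the study's design text. Age and sex of the mice and the number of animals behind each RNA sample are not given in the sources used here. The p-values of the main fit rest on the spread between replicates within the groups of all 8 arrays.

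LT-HSC are the rare, mostly non-dividing cells from which all blood cells descend, and they are held in bone marrow niches by signals such as the chemokine Cxcl12, which is read by the receptor Cxcr4. Ionising radiation breaks DNA, and the breaks activate the transcription factor p53. p53 switches on Cdkn1a, which encodes the cell cycle inhibitor p21, together with genes of apoptosis, repair and its own feedback. The question put to the WT arrays is which of these programmes still differed 5 days after a sublethal dose.

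The promoters of 3 genes on which the results turn are shown, the p53 targets Cdkn1a and Ccng1 and the early response phosphatase Dusp1. The sequences come from RefSeq (GRCm38.p6) and hold the 250 bases before the annotated start, written 5′ to 3′ on the strand of the gene. Capitals mark matches to a p53 half-site in Cdkn1a and Ccng1, and to the cAMP response element TGACGTCA in Dusp1.
Cdkn1a, upstream start, chr17:29090729-29090978, plus strand: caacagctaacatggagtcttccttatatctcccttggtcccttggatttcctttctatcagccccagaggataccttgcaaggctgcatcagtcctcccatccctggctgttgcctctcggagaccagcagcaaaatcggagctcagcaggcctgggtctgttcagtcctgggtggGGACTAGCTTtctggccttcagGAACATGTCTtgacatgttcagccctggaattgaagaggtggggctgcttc
Ccng1, chr11:40755287-40755536, minus strand: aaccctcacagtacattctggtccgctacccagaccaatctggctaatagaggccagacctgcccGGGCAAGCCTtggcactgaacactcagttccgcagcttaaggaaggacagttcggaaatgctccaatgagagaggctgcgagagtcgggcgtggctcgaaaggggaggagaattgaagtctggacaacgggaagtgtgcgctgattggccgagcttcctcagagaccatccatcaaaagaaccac
Dusp1, chr17:26508473-26508722, minus strand: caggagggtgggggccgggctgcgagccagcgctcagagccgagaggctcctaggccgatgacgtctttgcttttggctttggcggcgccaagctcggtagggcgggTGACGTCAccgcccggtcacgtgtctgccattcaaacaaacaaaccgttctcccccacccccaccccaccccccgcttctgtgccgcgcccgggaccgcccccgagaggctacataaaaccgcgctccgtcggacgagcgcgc
Matches were searched on both strands from 250 bases before to 50 bases after each start in the 32851 RefSeq promoters used here. A p53 half-site was found in 8.36% of them, and a full p53 site, which is 2 half-sites with 0 to 13 bases between them, in 0.0731%. The upstream start of Cdkn1a holds such a full site from -73 to -42, with the half-sites GGACTAGCTT and GAACATGTCT, and the downstream start holds no match in this window. In the upstream start the bases directly after that site, tgacatgttc, miss the half-site pattern only at their first base and were not counted. Ccng1 holds 1 half-site (GGGCAAGCCT, -185 to -176), Mdm2 1 (GAACTTGCCT, -186 to -177), and Phlda3 and Eda2r none. TGACGTCA occurs in 1.79% of the promoters and lies from -143 to -136 in Dusp1. A match is a description of letters, not a bound site.

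The labels were checked against the genes of the sorting gate. Kit, the stem cell factor receptor, stood at 14.93 and 14.89 (log2) in the non-irradiated arrays and at 14.36 and 14.33 in the irradiated arrays. Slamf1, which encodes CD150, stood at 10.99 and 11.56 without irradiation and at 12.38 and 11.63 after it. Flt3, which encodes the excluded antigen Flk2, stood at 7.99 and 7.12 against 6.45 and 6.65. Cd48, whose protein the gate also excludes, was well measured as RNA in every array, at 11.24 and 10.98 without irradiation and at 12.95 and 12.14 after it. None of the 40 measured LT-HSC identity genes lay below 4.77, the lowest median of a WT array, in all 4 arrays. The same held for 23 megakaryocyte genes, while 1 of 29 neutrophil and granulocyte-monocyte progenitor genes and 3 of 20 erythroid genes lay below it throughout. This level therefore does not set LT-HSC apart from those lineages. Siglec1, the macrophage gene that carries the receptor in the other strain, lay below it in all 4 (3.87 to 4.12). Ly6a, the gene of Sca-1, had no probe set under its symbol alone and is not analysed here.

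The median log2 value of the WT arrays was 4.77 in both non-irradiated arrays and 4.93 and 4.85 in irradiated replicates 1 and 2. Pearson's r across probe sets was 0.994 between the non-irradiated replicates and 0.991 between the irradiated ones. Irradiated WT replicate 1 stood apart along the leading components of all 8 arrays, which hold 21.7% and 19.7% of the variance, as did irradiated CD169-DTR replicate 2 on the opposite side of the second. Where the irradiated replicates differ much, the values of both are given for the genes on which the results turn. Each value is of a sorted population, so that fewer cells of a type and less RNA per cell cannot be told apart.

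Of 30294 probe sets, 3 passed the test across all of them (limma, Benjamini-Hochberg adjusted p under 0.05), which is 0.0099%. Cdkn1a and Mmp2 rose and Cxcr4 fell. At an unadjusted p under 0.05, 1394 probe sets were higher (4.6%) and 971 lower (3.21%). With each array centred on its median this split turned to 577 higher and 1836 lower, so that the share of higher calls went from 58.9% to 23.9%, and it was 46.5% after cyclic loess. The median difference of all probe sets was 0.075 log2 as deposited, with 64.6% of them above 0, and -0.04 after centring, with 12604 above 0 and 17572 below. Directions of small differences therefore depend on the scaling, and members of gene lists are counted below mainly where the 4 arrays did not overlap and the groups differed at least 1.5-fold. Groups that did not overlap, whatever the size of the difference, were found for 31.4% of probe sets on the higher and 13.2% on the lower side (13.8% and 25.6% after centring). With the fold minimum 712 probe sets (2.35%) were higher and 825 (2.72%) lower, and 371 (1.22%) and 1356 (4.48%) after centring.

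**Figure D1:**
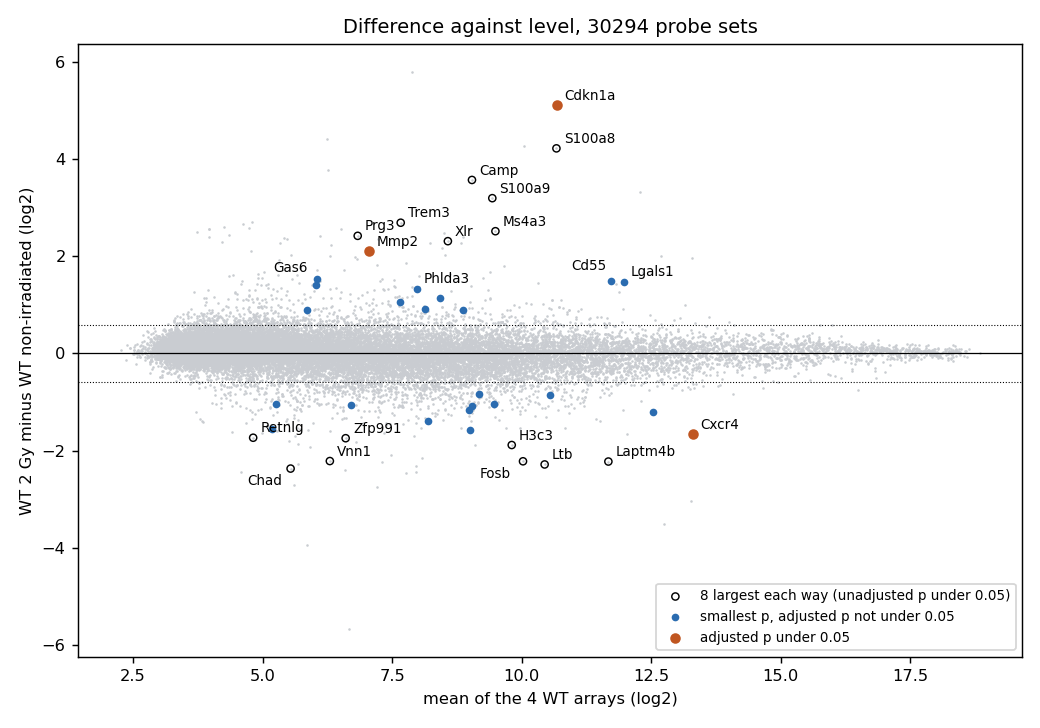
Difference between irradiated and non-irradiated WT arrays (y axis, log2) against the mean of the 4 WT arrays (x axis, log2) for 30294 probe sets, with dotted lines at a 1.5-fold difference. Cdkn1a, Mmp2 and Cxcr4 (orange) passed the test; genes with the smallest p among the rest are blue and the largest differences with an unadjusted p under 0.05 are open circles.

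Cdkn1a showed the largest rise of any protein-coding gene that was tested. It stood at 7.86 and 8.39 in the non-irradiated arrays and at 13.06 and 13.41 in the irradiated arrays. The irradiated arrays lay far above both controls and within 0.35 log2 of each other. The rise was 34.5-fold (95% confidence interval 23.3 to 51.3, 5.11 ± 0.24 log2, SE, n = 2 arrays a group, limma adjusted p = 0.0073). The call was lost in 3 alternatives: the limma adjusted p was 0.125 in a fit of the 4 WT arrays alone, 0.075 without non-irradiated WT replicate 1 and 0.0981 without both irradiated arrays that stood apart, with differences of 5.11, 4.85 and 5.29 log2.

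Mmp2, a secreted gelatinase that cuts collagen and other matrix proteins, rose from 6.12 and 5.89 to 8.23 and 7.99, which is 4.3-fold (3.4 to 5.44, 2.10 ± 0.14 log2, limma adjusted p = 0.0397). Cxcr4 was among the brightest genes of these cells and fell from 14.16 and 14.1 to 12.43 and 12.51. The fall was 3.16-fold (2.59 to 3.85, -1.66 ± 0.12 log2, limma adjusted p = 0.0397). In both genes the replicates of a group lay within 0.24 log2 of each other. Both calls sit close to the threshold, and both were lost with cyclic loess (limma adjusted p = 0.0957 for Cxcr4 and 0.0524 for Mmp2), with the replicate number as a block (0.194 and 0.0636), in a fit of the 4 WT arrays alone (0.399 and 0.462) and without both irradiated arrays that stood apart (0.33 and 0.213). Leaving out any 1 of the 8 arrays ended the call of Cxcr4, with adjusted p between 0.075 and 0.524 and differences between -1.7 and -1.62 log2. For Mmp2 the call held without irradiated WT replicate 2, and the adjusted p with any other array left out was between 0.0847 and 0.479, with differences between 1.98 and 2.22 log2.

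The p53 target genes stood higher as a group. Of 36 measured members 28 were higher and 8 lower, their median difference was 0.375 log2 against 0.075 over all probe sets, and 9 of 36 were apart and at least 1.5-fold higher against none lower. After centring they were 6 higher against 1 lower. Their median was 0.278 in irradiated replicate 1 and 0.37 in replicate 2, and it lay between 0.26 and 0.41 log2 under every alternative tried. Cdkn1a was the 1 member that passed. The next largest difference was 2.24 log2, in Eda2r.

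Among 15 targets of cell cycle arrest and feedback, 10 lay apart and higher, as did 31.4% of all probe sets, and 4 were also at least 1.5-fold higher. After centring 14 of the 36 members of the whole list lay apart and higher, against 13.8% of all probe sets. Phlda3, an inhibitor of the kinase Akt, stood at 7.37 and 7.24 without irradiation and at 8.61 and 8.66 after it, a difference of 1.33 ± 0.12 log2 (2.51-fold, limma adjusted p = 0.101). Ccng1, cyclin G1, whose promoter is shown above, stood at 13.22 and 13.24 and then at 13.88 and 14.09 (0.76 ± 0.13 log2, adjusted p = 0.37). Mdm2, the ubiquitin ligase that removes p53, stood at 8.8 and 9.05 against 9.13 and 9.24, a difference of 0.26 log2. Of the other feedback members Trp53inp1 (0.56 log2) and Zmat3 (0.45) stood higher and apart, and Plk3 (-0.57) stood lower. Sesn2 (6.39 and 6.3 against 7.22 and 6.62) and Plk2 (6.37 and 7.27 against 7.78 and 7.28) were higher mainly in irradiated replicate 1. Ppm1d, the phosphatase that switches p53 signalling off, and Sesn1 overlapped between the groups.

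Among 9 targets that promote cell death, Eda2r, a death receptor of the TNF receptor family, stood at 5.59 and 4.8 without irradiation and at 7.85 and 7.02 after it (2.24 ± 0.55 log2, adjusted p = 0.489). Pmaip1, which encodes the BH3-only protein Noxa, stood at 4.34 and 4.4 against 4.68 and 5.31. Fas and Tnfrsf10b, which are also death receptors, differed by 0.65 and 0.39 log2 on average but overlapped, with 1 irradiated replicate high in each. Bbc3, which encodes Puma, differed by 0.23 log2. Bax likewise had no probe set of its own symbol and is not analysed here. Among 12 targets of repair and metabolism 6 lay apart and higher and none apart and lower, against 31.4% and 13.2% of all probe sets. Of the 6, 3 were at least 1.5-fold higher. Sulf2, a sulfatase that edits heparan sulfate, stood at 5.66 and 5.41 against 6.23 and 6.64, and Ckap2, a spindle protein, differed by 0.81 log2. The repair genes Ddb2 and Xpc, which act on ultraviolet damage, overlapped between groups.

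**Figure D2:**
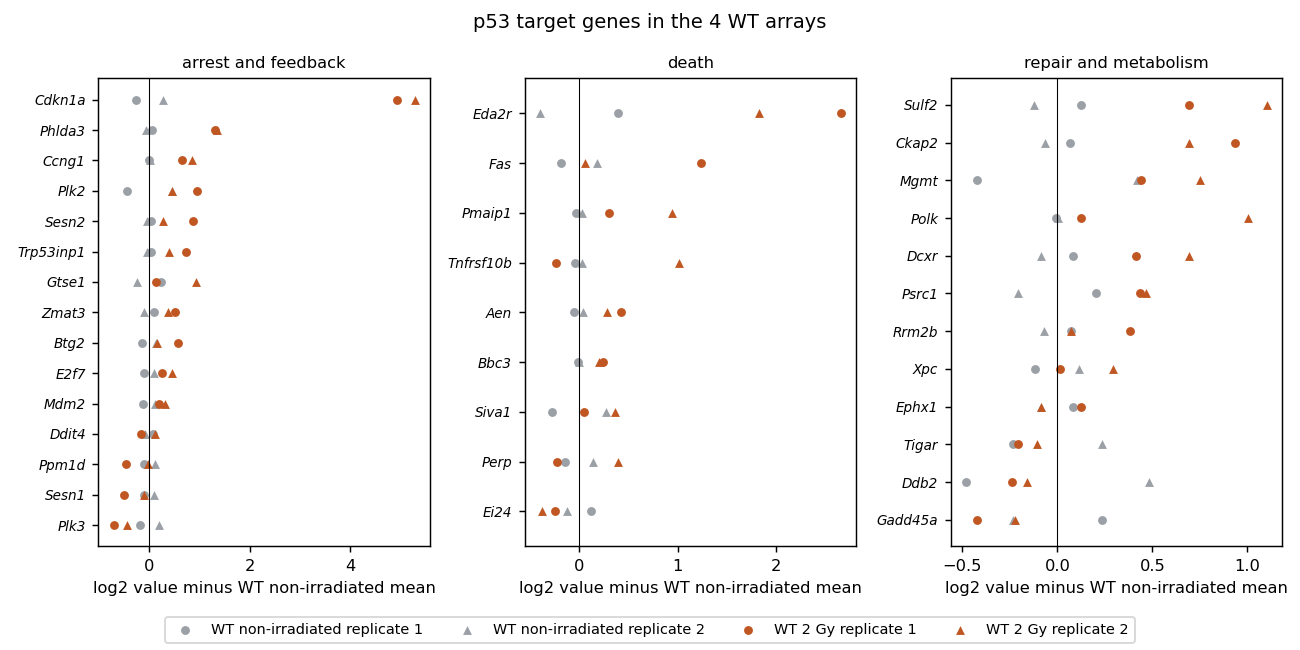
Log2 value of each WT array minus the mean of the 2 non-irradiated WT arrays (x axis) for the 36 measured p53 target genes, in the sub-groups arrest and feedback, death, and repair and metabolism. Cdkn1a lies near 5 log2 in both irradiated arrays and Phlda3 and Eda2r above 1, and Mdm2, Ddb2 and Gadd45a lie close to or among the controls.

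Other inhibitors of cyclin-dependent kinases did not follow Cdkn1a. Among the 7 measured, Cdkn1b (0.43 log2) stood higher, Cdkn1c stood at 6.99 and 6.91 against 6.69 and 6.55, and Cdkn2c and Cdkn2d were lower by 0.32 and 0.59 log2. Cdkn2a, which encodes p16 and p19Arf, differed by 0.16 log2 and overlapped between groups. Both Cdkn2a and Cdkn2b lay below 4.77 in all 4 WT arrays, so that their differences say little. In the Bcl2 family 11 of 16 members were higher and the median difference was 0.09 log2, both near the values of all probe sets, and after centring 7 were higher and 9 lower. Here only Pmaip1 was apart and at least 1.5-fold different as deposited, and no member was after centring. The survival genes Bcl2 (0.09), Bcl2l1 (0.23) and Mcl1 (-0.20 log2) differed little, and the pro-apoptotic Bcl2l11 (Bim) and Bak1 stood 0.33 and 0.41 log2 higher.

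Receptors and adhesion molecules of the niche stood lower as a group. Of 37 measured members 25 were lower and 12 higher, the median difference was -0.175 log2, and 7 were apart and at least 1.5-fold lower against 4 higher. After centring they were 10 lower against 1 higher. Cxcr4 was the 1 that passed. All 5 Notch and guidance receptors were below 0, with a median of -0.915 log2. Robo4, a Slit receptor of stem and endothelial cells, stood at 8.53 and 8.49 without irradiation and at 7.24 and 7.67 after it (-1.05 ± 0.16 log2, adjusted p = 0.301). Notch2 stood at 10.82 and 10.27 against 9.76 and 9.5, and Neo1, the netrin and repulsive guidance receptor, differed by -0.97 log2. Among cytokine receptors Kit differed by -0.57 ± 0.11 log2 (1.48-fold, adjusted p = 0.387) and Il6st, the shared gp130 chain, stood at 10.36 and 10.55 against 9.89 and 9.15.

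Adhesion molecules did not go one way. Alcam stood at 9.28 and 9.13 without irradiation and at 8.41 and 8.72 after it, and Selplg and Esam differed by -0.48 and -0.52 log2. Jam3, a junctional molecule, stood at 4.73 and 4.95 against 5.33 and 5.62. Itgb2, the chain shared by the leukocyte integrins, stood at 6.97 and 6.71 against 9.14 and 7.33. The high value of Itgb2 lies in irradiated replicate 1.

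Within the TGF-beta and BMP pathway, which holds stem cells in quiescence, 13 of 25 members were higher and 12 lower. After centring 8 were higher and 17 lower. The ligand Tgfb1 stood at 12.46 and 12.29 without irradiation and at 12.92 and 13.05 after it (0.61 ± 0.16 log2, adjusted p = 0.505). The co-receptor Eng (endoglin) stood at 11.36 and 10.73 against 10.15 and 9.79, and the receptor Tgfbr2 at 7.78 and 8.26 against 6.56 and 7.67, lower mainly in irradiated replicate 1. The mediator Smad3 stood at 6.69 and 6.73 against 6.22 and 6.43. Among 14 mediators and targets 1 lay apart and higher and 5 apart and lower, against 31.4% and 13.2% of all probe sets. None of these members was apart and at least 1.5-fold different.

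Mmp2 stood apart from the rest of its family. Of 18 measured metalloproteinases and inhibitors it alone was apart and at least 1.5-fold higher. Its inhibitor Timp2 stood at 10.03 and 10.28 without irradiation and at 9.56 and 9.67 after it (-0.54 log2), and Timp1 lay below the array medians throughout. Of the 31 matrix and protease genes 16 were below 4.77 in all 4 WT arrays. Tgfbi, a secreted adhesion protein, stood at 7.87 and 8.55 against 9.76 and 8.69.

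Several genes of secreted and surface proteins joined Mmp2 among the smallest p-values of higher genes, none with an adjusted p under 0.05. Gas6, the ligand of the TAM receptor kinases, stood at 5.32 and 5.23 without irradiation and at 6.61 and 7 after it (1.53 ± 0.17 log2, 2.89-fold, adjusted p = 0.227). Lgals1, galectin 1, stood at 11.03 and 11.42 against 12.71 and 12.7 (1.48 ± 0.21 log2). The complement inhibitor Cd55 stood at 10.9 and 11.05 against 12.76 and 12.18. Its neighbouring copy Cd55b stood at 7.02 and 7.23 against 8.16 and 8.19, and since the copies are alike in sequence their probe sets may share signal. Tspan2, a tetraspanin, stood at 5.25 and 5.41 against 6.98 and 6.49, and Ly6c1, a surface antigen of the Ly6 family, at 7.69 and 7.68 against 8.49 and 8.71. Inside the cell Cip2a, an inhibitor of the phosphatase PP2A, stood at 7.64 and 8.08 against 8.88 and 9.12, Ppp1r8, a nuclear regulator of the phosphatase PP1, at 8.35 and 8.51 against 9.4 and 9.24, and the syntrophin Sntb2 at 5.21 and 5.62 against 6.36 and 6.26.

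Among genes lower after 2 Gy with the smallest p-values, Kcnn4, a calcium-activated potassium channel, stood at 13.12 and 13.15 without irradiation and at 11.78 and 12.07 after it (-1.21 ± 0.16 log2, 2.31-fold, adjusted p = 0.301). Camsap3, which caps microtubule minus ends, stood at 10.07 and 9.52 against 8.05 and 8.4, and B4galt1, a galactosyltransferase, at 9.49 and 9.64 against 8.46 and 8.35. Exoc3, a subunit of the exocyst, stood at 10.98 and 10.97 against 10.16 and 10.08. The remaining genes so named were Wdr6, Tns2, Kpna6, Igsf10, Adam22, Eri3 and Serpinf1, with differences between -1.56 and -0.82 log2 and groups that did not overlap. The adjusted p of all 11 genes was 0.301.

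Genes that mark LT-HSC stood lower. Of 40 measured members 28 were lower and 12 higher, the median difference was -0.19 log2, and 8 were apart and at least 1.5-fold lower against 1 higher, which was Slamf1. The median was -0.14 in irradiated replicate 1 and -0.24 in replicate 2, and it stayed between -0.305 and -0.14 log2 under every alternative tried. Runx1, a transcription factor that founds the blood lineage, stood at 10.65 and 10.48 without irradiation and at 9.1 and 9.65 after it (-1.19 ± 0.24 log2, 2.28-fold, adjusted p = 0.395). Hlf, a transcription factor that marks the most primitive stem cells, stood at 13.33 and 13.18 against 12.7 and 12.53 (-0.64 ± 0.12 log2). Sult1a1, a sulfotransferase of the LT-HSC signature, stood at 7.92 and 8.29 against 7.01 and 6.32. Fgd5 stood at 8.89 and 8.37 against 8.27 and 7.59, Trim47 at 8.59 and 8.16 against 7.86 and 7.46, and Clec1a at 9.67 and 9.55 against 9.21 and 7.69. The difference of Clec1a lies mostly in irradiated replicate 2. Of 19 transcription factors 14 were lower, with a median of -0.165 log2. None of the list passed the test.

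Immediate early genes stood lowest of the 24 lists by median. Of 33 members 24 were lower and 9 higher, the median difference was -0.325 log2, and 5 were apart and at least 1.5-fold lower against 1 higher. After centring these counts were 12 lower against 1 higher. Fosb, a subunit of the transcription factor AP-1, stood at 11.55 and 10.72 without irradiation and at 9.12 and 8.71 after it (-2.22 ± 0.41 log2, 4.66-fold, adjusted p = 0.387). Fos stood at 9.88 and 9.44 against 9.07 and 8.46, and 7 of the 8 measured AP-1 members were lower. Dusp1, a phosphatase that switches off stress kinases and whose promoter is shown above, stood at 13.29 and 12.43 against 11.18 and 11.22 (-1.66 ± 0.30 log2, 3.16-fold, adjusted p = 0.378). Egr1 stood at 6.37 and 6.04 against 5.58 and 5.68, and Srf, which drives many of these genes, at 7.16 in both controls against 6.04 and 6.72. Ier5 went the other way, at 6.88 and 7.04 against 8.28 and 7.62.

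**Figure D3:**
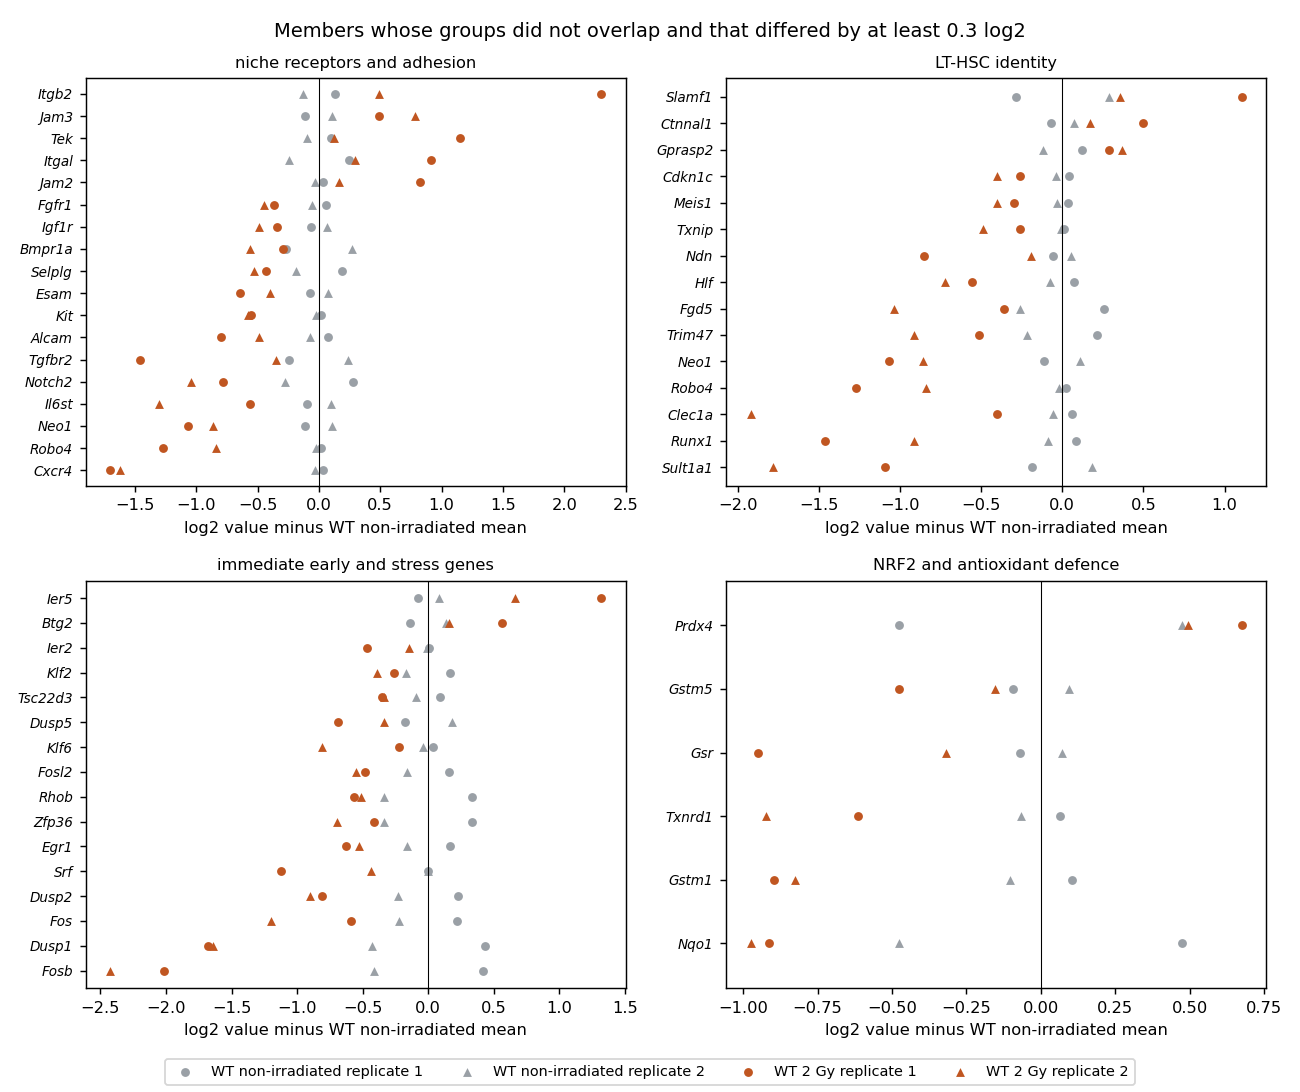
Log2 value of each WT array minus the non-irradiated mean (x axis) for members of 4 lists whose groups did not overlap and that differed by at least 0.3 log2. Most shown members lie to the left of the controls in both irradiated arrays, with Cxcr4, Sult1a1, Fosb and Nqo1 lowest in their panels.

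Defence against oxidants was lower in several members. Gstm1, a glutathione transferase, stood at 12.22 and 12.01 without irradiation and at 11.22 and 11.29 after it (-0.86 ± 0.13 log2, adjusted p = 0.301). Txnrd1, thioredoxin reductase, stood at 10.03 and 9.9 against 9.35 and 9.04, Gsr, glutathione reductase, at 8.2 and 8.34 against 7.32 and 7.95, and Nqo1, the quinone reductase, at 6.95 and 6 against 5.56 and 5.5. These 4 were the members apart and at least 1.5-fold lower, against 1 higher, among 23 NRF2 and antioxidant genes with a median difference of -0.055 log2. In the unfolded protein response Xbp1, its transcription factor, stood at 10.97 and 11.19 against 9.96 and 10.24 (-0.98 ± 0.15 log2, adjusted p = 0.301), while the list's median was -0.11 log2. In glycolysis 18 of 27 members were lower, with a median of -0.175 log2. Ldhb stood at 11.62 and 11.48 against 10.82 and 10.79, and the glucose transporter Slc2a3 at 9.86 and 10.23 against 9.7 and 9.16.

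The cell cycle genes had no common direction as deposited. Among 38 genes of G1/S and DNA replication 18 were higher and 20 lower, where 64.6% of all probe sets were higher. Their median difference was -0.015 log2, with -0.15 in irradiated replicate 1 and 0.045 in replicate 2. After centring 10 were higher and 28 lower, with a median of -0.13 log2 against -0.04 over all probe sets. The members apart and at least 1.5-fold different were the E-type cyclins that start S phase. Ccne1 stood at 6.85 and 7.15 without irradiation and at 8.05 and 8.29 after it, and Ccne2 at 9.71 and 10.48 against 10.87 and 10.86. Of 25 replication genes none was apart and 1.5-fold different. Among 41 G2/M and mitosis genes 27 were higher and the median was 0.06 log2, again near all probe sets, and after centring 16 were higher and 24 lower. As deposited 4 were apart and at least 1.5-fold higher, against 1 after centring, among the 4 the spindle motors Cenpe (8.93 and 8.54 against 9.71 and 9.95) and Kif4 (8.5 and 8.17 against 8.95 and 9.1). The replicates disagreed here, with a list median of -0.18 log2 in irradiated replicate 1 and 0.31 in replicate 2. Mki67, the proliferation marker, stood at 15.23 and 14.63 against 14.99 and 15.63, so that the groups overlapped. Of 32 double-strand break repair genes 17 were higher and 15 lower, and 12 and 20 after centring. As deposited Chek2, a checkpoint kinase, was the only member apart and 1.5-fold different (8.71 and 9.14 against 8.15 and 8.24). After centring 2 members were apart and at least 1.5-fold lower and 0 higher.

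Interferon response genes tended lower by small amounts. Of 22 interferon-gamma and MHC class I genes 19 were lower, with a median of -0.158 log2 that stayed below 0 under every alternative, and 2 were apart and at least 1.5-fold lower. The peptide transporter Tap2 stood at 8.66 and 8.29 without irradiation and at 7.78 and 7.87 after it, and the guanylate-binding protein Gbp4 at 7.3 and 7.47 against 6.82 and 6.77. Of 32 type I interferon genes 20 were lower with a median of -0.053 log2, and Oasl2 (8.49 and 8.5 against 7.84 and 7.62) and Cmpk2 (9.36 and 9.86 against 8.81 and 8.82) were apart and at least 1.5-fold lower. Among 31 NF-kB and cytokine genes 18 were higher and 13 lower. Il6 stood at 5.51 and 4.71 against 4.08 and 3.96, where all values but the first lie below 4.77. Traf1 stood at 5.91 and 6.49 against 5.69 and 5.39.

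The largest differences with an unadjusted p under 0.05 and groups that did not overlap were led on the higher side by granule genes. After Cdkn1a came S100a8 (6.74 and 10.38 against 12.25 and 13.31), Camp (6.79 and 7.72 against 10.8 and 10.85) and S100a9 (6.03 and 9.64 against 11.47 and 10.59). These encode calprotectin and cathelicidin of neutrophils, and their controls differ from each other by up to 3.64 log2. Trem3, Ms4a3, Prg3 and Xlr followed, with differences between 2.31 and 2.69 log2. On the lower side Ltb, a lymphotoxin, stood at 11.92 and 11.25 without irradiation and at 9.35 and 9.25 after it. Vnn1, a pantetheinase, stood at 7.69 and 7.12 against 4.75 and 5.63, and Laptm4b, a lysosomal membrane protein, at 12.92 and 12.65 against 9.73 and 11.39. Chad, Fosb, H3c3, Zfp991 and Retnlg completed the lower set, with differences between -2.37 and -1.74 log2. That of the histone gene H3c3 (10.29 and 11.21 against 7.64 and 10.09) was -0.66 log2 without irradiated replicate 1. Outside protein-coding genes, and named after its values were seen, the small nucleolar RNA Snord90 stood at 9.56 and 9.44 against 3.55 and 4.11 (-5.67 ± 0.63 log2, adjusted p = 0.227).

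**Figure D4:**
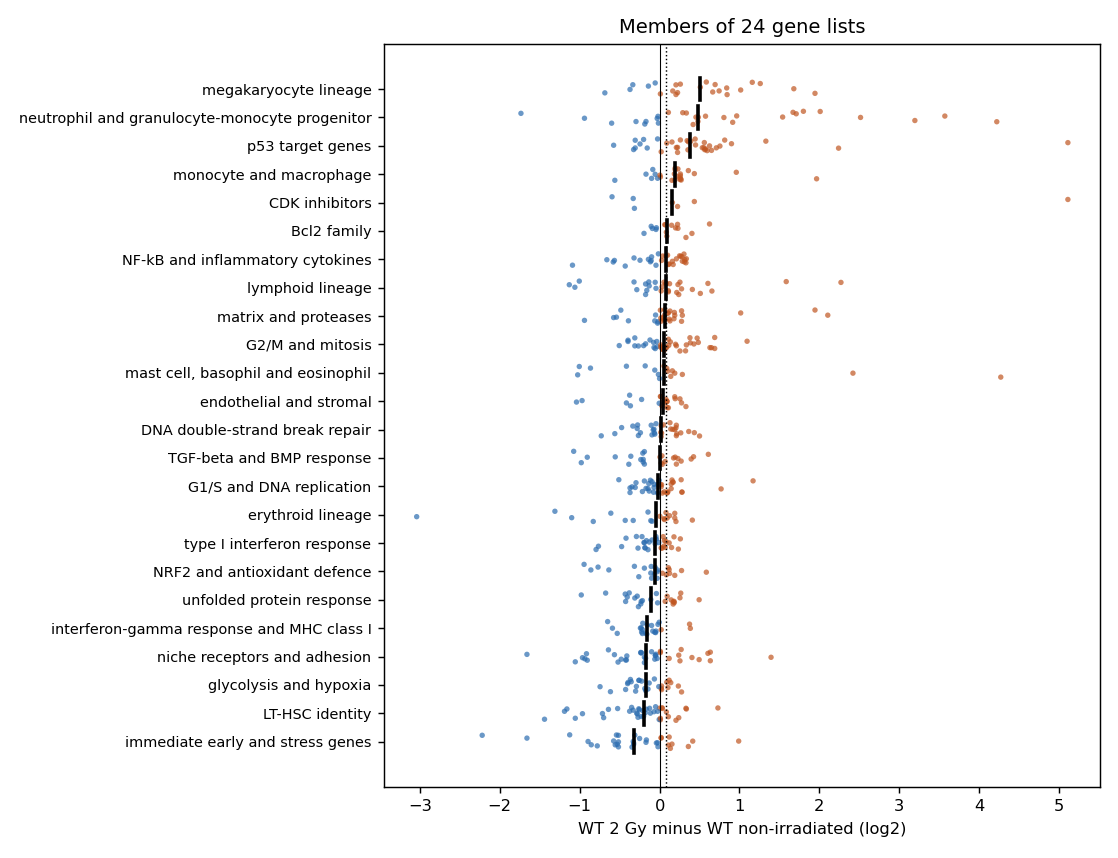
Difference between irradiated and non-irradiated WT arrays (x axis, log2) for each measured member of the 24 gene lists, with each list's median as a black bar and the median of all probe sets (0.075) as a dotted line. The megakaryocyte, neutrophil and p53 lists lie highest by median (0.51, 0.48 and 0.375 log2) and the immediate early and LT-HSC identity lists lowest (-0.325 and -0.19 log2).

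Marker genes of other blood cells were followed in the same arrays, since a sorting gate can hold cells besides LT-HSC. Of 29 neutrophil and granulocyte-monocyte progenitor genes 20 were higher, 10 of them apart and at least 1.5-fold, and 9 were lower, 2 of them apart and at least 1.5-fold, with a median difference of 0.48 log2. Both of these lower genes belong to later granules and mature neutrophils, Retnlg (5.89 and 5.48 against 3.99 and 3.91) and Padi4 (7.32 and 7.75 against 6.98 and 6.89). After centring the counts apart and at least 1.5-fold were 9 higher and 2 lower. Their mean level was 6.9 and 7.35 log2 in the non-irradiated arrays and 7.76 and 8.15 in the irradiated arrays. Primary granule genes made by progenitors were highest in irradiated replicate 2. Elane, neutrophil elastase, stood at 11.76 and 11.59 without irradiation and at 12.8 and 14.57 after it. Mpo, myeloperoxidase, stood at 11.75 and 11.25 against 12.28 and 14.06, and Ctsg, cathepsin G, at 9.09 and 8.41 against 9.81 and 11.29. Hp, haptoglobin, followed the same order at 5.8 and 5.65 against 6.71 and 8.16, and Ly6c2, a marker of monocyte progenitors, at 12.5 and 12.09 against 13.62 and 14.9.

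Of 23 megakaryocyte genes 18 were higher, 8 of them apart and at least 1.5-fold, and 5 were lower, of which 4 were apart. Itgb3, the integrin chain of the platelet fibrinogen receptor, was the 1 apart and at least 1.5-fold lower (8.5 and 8.49 against 8.21 and 7.41). After centring 5 members were apart and at least 1.5-fold higher and 1 lower. Their median difference was 0.51 log2, made of 0.845 in irradiated replicate 1 and 0.075 in replicate 2. Their mean level was 8.9, 8.94, 9.92 and 8.91 log2 in the 4 arrays, so that replicate 1 alone stood above the others. Selp, P-selectin, stood at 8.4 and 8.71 without irradiation and at 10.71 and 9.76 after it (1.68 ± 0.31 log2, adjusted p = 0.387). Pf4, platelet factor 4, stood at 15.61 and 15.78 against 16.24 and 16.32, Cavin2 at 9.94 and 9.87 against 11.13 and 10.71, and Gp9 at 9.17 and 9.31 against 10.28 and 9.69. These 4 were higher in both irradiated replicates.

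Of 20 erythroid genes 10 were higher, by at most 0.41 log2, and 10 lower, where 64.6% of all probe sets were higher. None had an unadjusted p under 0.05 by limma. After centring 5 were higher and 15 lower. Of them 0 lay apart and higher and 8 apart and lower, against 13.8% and 25.6% of all probe sets. Car1, carbonic anhydrase 1, stood at 15.09 and 14.47 without irradiation and at 10.55 and 12.93 after it (limma adjusted p = 0.672). The erythroid factor Klf1 stood at 8.31 and 7.67 against 6.96 and 7.36 (limma adjusted p = 0.666). Mean levels of that list were 7.39, 7.18, 6.77 and 7.14 log2. Of 25 monocyte and macrophage genes 19 were higher, where 64.6% of all probe sets were, with a list median of 0.195 log2 against 0.075. After centring the list median was 0.08 log2, and 3 members lay apart and higher against 4 apart and lower. Below 4.77 in all 4 arrays lay 9 of the 25, among them Siglec1. Of 31 lymphoid genes 16, of 23 endothelial and stromal genes 14 and of 17 mast cell, basophil and eosinophil genes 7 lay below 4.77 throughout. The eosinophil gene Prg2 stood at 10.59 and 5.23 against 12.5 and 11.86, so that its controls differed by 5.36 log2. The part of these lineage genes in the other differences was not tested.

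**Figure D5:**
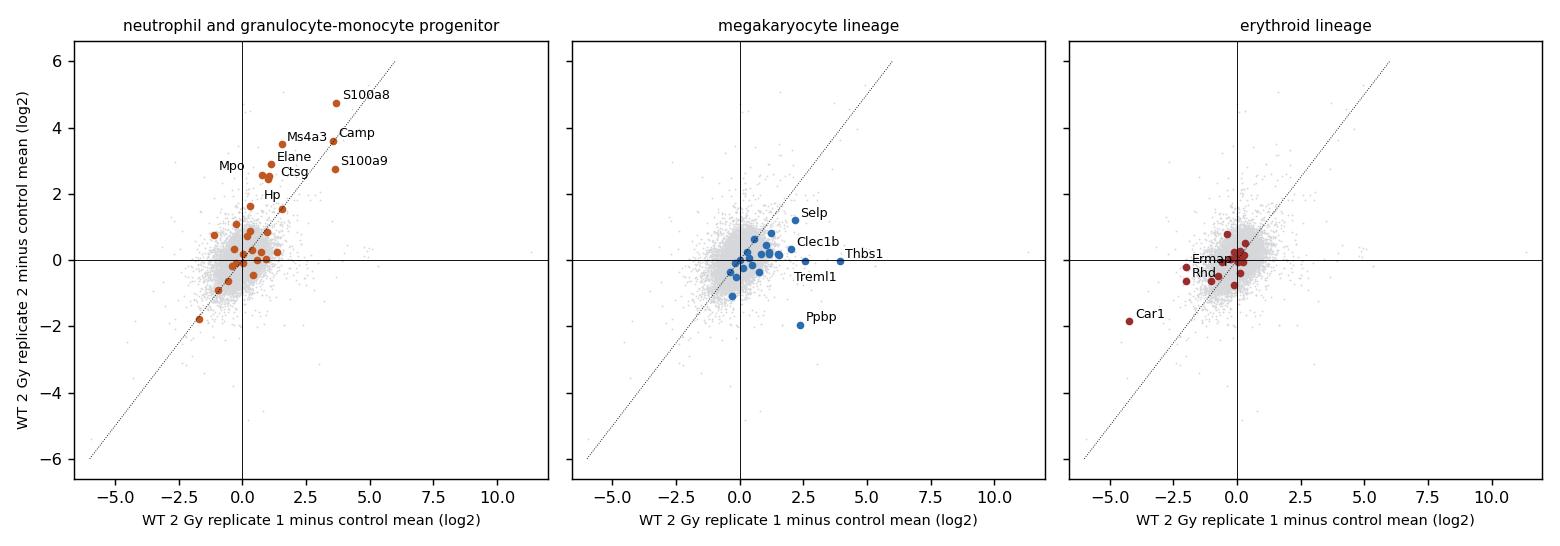
Difference from the non-irradiated WT mean in irradiated replicate 1 (x axis, log2) and replicate 2 (y axis, log2) for all probe sets (grey) and 3 lineage lists (coloured), with the line of equal values dotted. Primary granule genes lie above the line (Elane, Mpo, Ctsg), megakaryocyte genes mostly below it (Thbs1, Treml1, Ppbp) and Car1 lies low in both replicates.

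The irradiated WT replicates differed from each other more than the controls did. Probe sets that differed by at least 1 log2 between replicates numbered 820 (2.71%) in the irradiated group and 464 (1.53%) in the non-irradiated group. The largest differences toward irradiated replicate 1 held the platelet genes Ppbp (10.77 in replicate 1 against 6.45 in replicate 2), Thbs1 (9.78 against 5.81) and Treml1 (13.81 against 11.22), together with Hpse, Gkn3, Gimap4, Slc35f2 and Clca3a1. Those toward replicate 2 were led by Mpzl1 (6.55 in replicate 1 against 10.11 in replicate 2), H3c3 (7.64 against 10.09), Stom (6.37 against 8.81) and Slc7a5 (7.31 against 9.74). Replicate 1 also held high signal in some immunoglobulin kappa probe sets. Igkv19-93, named after its values were seen, stood at 16.33 there and between 4.8 and 5.32 in the other 7 arrays of the study. Of 87 kappa probe sets 8 stood at least 3 log2 above the control mean in replicate 1 and 1 in replicate 2. The share of all probe sets past that step was not counted, nor were other immunoglobulin segments or the CD169-DTR arrays. These counts therefore do not show that kappa signal is particular to replicate 1.

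The same dose in CD169-DTR mice gave no probe set that passed by limma, with 2050 (6.77%) at an unadjusted p under 0.05, and the test of the difference between the strains' responses gave none either, with 1567 (5.17%) at an unadjusted p under 0.05 and a lowest adjusted p of 0.679. Cdkn1a stood at 9.79 and 9.34 in the non-irradiated and at 13.24 and 13.23 in the irradiated CD169-DTR arrays, so that the irradiated arrays of both strains lay between 13.06 and 13.41 and the CD169-DTR controls lay above the WT controls. Its difference was 3.67 log2 there against 5.11 in WT (interaction 1.44 ± 0.34 log2, limma unadjusted p = 0.00421, adjusted p = 0.839). The CD169-DTR difference of Cdkn1a had a limma adjusted p of 0.0622. It passed with an intensity trend, a filter at the 40th percentile, all probe sets or cyclic loess. Mmp2 stood at 6.8 and 6.73 against 7.69 and 7.59, a difference of 0.88 log2 (interaction unadjusted p = 0.000605, adjusted p = 0.753). Cxcr4 stood at 14.17 and 14 against 13.79 and 13.88, a difference of -0.25 log2 where WT had -1.66 (interaction -1.41 ± 0.17 log2, unadjusted p = 9.57e-05, adjusted p = 0.679).

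The p53 target genes had a median difference of 0.375 log2 in WT and 0.417 in CD169-DTR. Phlda3 differed by 1.33 and 1.29 log2 (interaction 0.04 ± 0.16) and Ccng1 by 0.76 and 0.69 log2 (0.07 ± 0.19). Fosb was lower in both, by -2.22 and -2.67 log2. The neutrophil list had a median of 0.48 log2 in WT and -0.115 in CD169-DTR, and the megakaryocyte list 0.51 and 0.12. The 24 genes with the smallest p in WT were chosen for their WT values, so that their values in CD169-DTR are a description. Of 12 higher genes 11 were higher in CD169-DTR too (median 1.37 log2 in WT against 0.50), and of 12 lower genes 7 were lower there too (median -1.12 against -0.12 log2).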

How the data were processed

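RNA of sorted LT-HSC was measured on 8 Affymetrix arrays, and the deposited log2 values, 1 for each probe set in each array, were made with RMA per the submitters' processing notes. The log base is not stated and was taken as 2, the convention of RMA. The RMA settings are not given in the sources used here, and the medians of the deposited arrays ran from 4.76 to 4.93 log2. A shift shared by most genes cannot be told apart from scaling. Values were used as deposited, with no filter and no pseudocount. Of 40161 probe sets 30294 carried 1 gene symbol (29915 genes) and were tested, 2145 carried several and 7722 none. Symbols were updated for 827 through Entrez IDs matched to RefSeq (22546 matched).

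One model with the means of the 4 groups of 2 arrays was fitted with limma 3.58.1 (lmFit, eBayes, R 4.3.3), two-sided, adjusted over 30294 probe sets by Benjamini-Hochberg. Residual degrees of freedom were 4 and prior ones 2.59, and the residual SD had a median of 0.182 log2. SE and 95% intervals come from it. For a single value 2 arrays against 2 cannot go below an exact permutation p of 0.333. The code was tested on simulated data.

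The comparison, the 24 gene lists (698 genes) and the rules were chosen with earlier results of these data known. Named are the 3 probe sets that passed, those that fill 12 higher and 12 lower by smallest p among non-overlapping groups that differ 1.5-fold or more, the 8 largest differences each way at an unadjusted p under 0.05, the 4 smallest p in each list, 12 genes always named, and the 8 largest differences each way between irradiated WT replicates. Predicted genes, receptor and immunoglobulin segments and small RNA genes were passed over. Other list members were named, and Snord90 and Igkv19-93 added, after their values were seen. A gene with several probe sets is given by the brightest. Alternatives were an intensity trend, a filter at the 40th percentile, all probe sets, cyclic loess, median centring, a replicate block, only the groups compared, a looser threshold and each array left out; leaving out both irradiated arrays that stood apart was added after seeing the data.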

Additional observations from a re-analysis of the deposited data

Results flagged for a closer look

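For 14 of the genes named in WT, both irradiated WT arrays lay on one side of their controls and both irradiated CD169-DTR arrays on the other side of theirs. The difference between the responses was tested as the interaction in limma, and none passed over all probe sets, with adjusted p between 0.679 and 0.96. Since the genes were picked for opposite directions, the interaction values below are a description.

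Among genes lower in WT and higher in CD169-DTR, Wdr6 differed by -1.04 log2 in WT and 0.35 in CD169-DTR (limma adjusted p = 0.679) and Eri3, an exonuclease gene, by -0.82 and 0.27 log2 (limma adjusted p = 0.679). Vnn1 differed by -2.21 and 0.41 log2 (limma adjusted p = 0.753), and Tgfb3, a TGF-beta ligand, by -0.98 and 1.06 log2 (limma adjusted p = 0.839). Il6st, the gp130 chain of the interleukin-6 receptor, differed by -0.94 and 0.41 log2 (limma adjusted p = 0.874). Il6 itself differed by -1.09 and 0.98 log2 (limma adjusted p = 0.874), with both irradiated WT arrays below 4.77. Srf differed by -0.78 and 0.78 log2 (limma adjusted p = 0.874) and the kinase inhibitor gene Cdkn2d by -0.59 and 0.59 log2 (limma adjusted p = 0.874). The stress kinase gene Eif2ak3 differed by -0.41 and 0.48 log2 (limma adjusted p = 0.913) and the histone gene H3c3 by -1.89 and 1.22 log2 (limma adjusted p = 0.913), the first being -0.66 without irradiated WT replicate 1.

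Among genes higher in WT and lower in CD169-DTR, Jam3 differed by 0.64 and -0.36 log2 (limma adjusted p = 0.878) and cyclin E2, Ccne2, by 0.77 and -0.06 log2 (limma adjusted p = 0.933). The complement gene C1qc differed by 0.26 and -0.04 log2 (limma adjusted p = 0.957). It lay below 4.77 in all 4 WT arrays, so that its difference says little. Igkv19-93 differed by 5.79 and -0.28 log2 (limma adjusted p = 0.96), a value that rests on irradiated WT replicate 1.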

How the results depend on the processing

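For 2 Gy in WT, where 3 probe sets passed, the count was 2 with an intensity trend and with the dim filter, 4 over all probe sets and 3 with median centring. It was 1 with cyclic loess, 0 in a fit of the groups compared alone, 2 without both irradiated arrays that stood apart, and 1002 (447 higher, 555 lower) at an unadjusted p under 0.05 with a fold of at least 1.5. Leaving out 1 array gave between 0 and 16: 0 without non-irradiated WT replicate 1, 1 without non-irradiated WT replicate 2, 7 without irradiated WT replicate 1 and 16 without irradiated WT replicate 2. The array left alone is then assumed to vary like the other groups, so that its single-array values can pass. These counts do not show that the 3 main calls were kept. Without both irradiated arrays that stood apart, the immunoglobulin probe sets Ighg2b and Ighv1-39 passed and none of the 3 did. Of the 3, only Cdkn1a passed without irradiated WT replicate 1, and only Cdkn1a and Mmp2 without irradiated WT replicate 2. Immunoglobulin segments were among the other probe sets that passed in both of these fits.

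The replicate numbers could pair the arrays, but the deviations of equal-numbered WT arrays had a correlation of -0.0064, and those of the other group pairs lay between -0.0877 and 0.159. With the replicate block 1 probe set passed in WT, which was Cdkn1a, and 0 in both other comparisons.

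For 2 Gy in CD169-DTR, where 0 passed, the count was 2 with an intensity trend, over all probe sets and with cyclic loess, 1 with the dim filter and with the groups compared alone, 4 without both irradiated arrays that stood apart, 1085 at the looser threshold, and between 0 and 5 with 1 array left out. For the difference between the responses, where 0 passed, it was 1 without both arrays, 1215 at the looser threshold, and between 0 and 7 with 1 array left out. Of 138 gene differences none reversed under an alternative. Most of the 138 were kept because their WT groups did not overlap, so that leaving out arrays could not reverse them. For these only cyclic loess and centring could, since the other alternatives keep the sign of the difference. The medians of 13 of the 24 lists kept their sign throughout; the p53, LT-HSC identity, niche, immediate early, interferon, neutrophil, monocyte and megakaryocyte lists are among them. The cell cycle, repair, Bcl2, matrix, TGF-beta, NF-kB and lymphoid lists are among the 11 others. The Cxcr4 call was also lost with the dim filter (limma adjusted p = 0.0519) and the Mmp2 call with the intensity trend (0.0762). The cause of these shifts was not tested. With 2 arrays a group, small differences could not be resolved.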
